A study of Mus musculus with 3 samples.

Results

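The genes described here are 9 modulators of Wnt signalling (Sfrp1, Sfrp5, Frzb, Wif1, Dkk3, Cxxc4, Axin2, Lef1 and Tcf7l2), followed by cell type in single cells from the mouse pituitary intermediate lobe (IL). They were a fixed list of names, chosen by levels already seen in these libraries, namely the CPM and the share of cells with a UMI in stem cells (SCs), and the lower Sfrp5 and Cxxc4 in SCs of S2CK. The differences in SCs are therefore descriptions. Of the 9 genes, 8 had a row in each of the 3 count tables, out of 17775 genes with a row in any table and 15527 with a row in all. Wif1 had none and is not described further. A UMI is 1 counted transcript molecule, and CPM is the number of UMIs of a gene per 1000000 UMIs summed over the cells of 1 type in 1 library.

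The 3 libraries, 1 for each genotype, were made with droplets from mice aged 3 months, whose IL cells were pooled (males for WT, both sexes for the others, by the study). WT was Sox9iresCreERT2/+, P27NULL was Sox9iresCreERT2/+;p27-/- and S2CK was Sox9iresCreERT2/+;Sox2fl/+;p27-/-. All 3 groups carried the tamoxifen-inducible Cre in 1 copy of Sox9. This places Cre in cells that express Sox9, namely SCs and, by the study, also cells of the posterior lobe. All received tamoxifen by mouth, at an age of 4 weeks by the labels and at birth by the study's text. The loss of p27 (Cdkn1b) is present in all cells. In S2CK the 1 Sox2 copy that Cre can remove is lost only in cells where Cre acted and in the cells that descend from them. The names WT, P27NULL and S2CK stand throughout for the libraries so labelled. With 1 library per genotype there was no replicate, no test between genotypes was possible, and every interval below is a 95% interval for counting error only. Genotype and library cannot be told apart.

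Wnt ligands bind Frizzled receptors with the co-receptors Lrp5 and Lrp6, which keeps beta-catenin from being destroyed and lets it act with TCF and LEF factors on target genes. Secreted inhibitors of the SFRP and DKK families act outside the cell, Cxxc4 (also called Idax) binds Dishevelled inside it, and Axin2 is both a part of the destruction complex and a common target of the pathway. In the pituitary, Wnt signals act between SCs and their neighbours during growth, and SCs are known as a source of Wnt ligands.

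The tables held 2020, 4153 and 3488 cells with 8332285, 15588317 and 19239147 UMIs in WT, P27NULL and S2CK. SC-like clusters held 139, 105 and 91 cells with 561129, 379355 and 645200 UMIs, and melanotroph-like clusters held 1128, 2870 and 2590 cells. Medians of 2038, 2275 and 3551 UMIs per SC-like cell differed between libraries. All 6 SC markers (Cyp2f2, Lcn2, Mia, Cpxm2, Rbpms and Ednrb) were found in the SC-like cells of each library, with summed levels of 9663, 8377 and 5132 CPM. Mia gave 3665 of 5422, 1971 of 3178 and 1327 of 3311 of these UMIs, so the sums fell mainly through it. Per total UMIs, Lcn2 and Rbpms were also lower in S2CK than in WT. Cyp2f2 (416, 364 and 730 UMIs), Cpxm2 (120, 91 and 179) and Ednrb (146, 112 and 202) were not. The 10 deepest SC-like cells gave 30.1%, 37.7% and 40.8% of the SC-like UMIs, so a few cells weigh heavily in the sums. In a clustering of all libraries together, 9 of the 91 S2CK cells lay in a cluster with pituicyte markers (glial cells of the posterior lobe). So did 1 of the 105 P27NULL cells, and 3 of the 139 WT cells lay in a gonadotroph-like one. All of these kept the name SC-like, and no S2CK cell was named pituicyte-like. The targeted gene Cdkn1b did not bear out the label P27NULL, at 33.2 CPM in melanotroph-like cells against 33 in WT and 16.9 in S2CK, though a 3′ tag outside the deleted part would check nothing. Each direction drawn from the library labelled P27NULL carries this limit. Sox2 in SC-like cells stood at 271, 308 and 132 CPM. No SC-like or melanotroph-like cell of WT held a UMI of Xist, which marks female cells, whereas 80 of 91 SC-like cells of S2CK and 18 of 105 of P27NULL held Xist and no Y-linked UMIs, so the share of female cells differed between libraries.

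Sfrp5 (chromosome 19, 42197971 to 42202252 in GRCm38.p6) encodes a secreted protein that binds Wnt ligands. It was concentrated in SC-like cells, which gave 89.9% of its UMIs in WT, 83.2% in P27NULL and 77.8% in S2CK, although they were 6.88%, 2.53% and 2.61% of the cells. In SC-like cells 71 UMIs were counted in WT, 79 in P27NULL and 21 in S2CK. The level in WT was 127 CPM (98.8 to 159.6). P27NULL stood at 208 CPM (165 to 259.5), and S2CK at 32.5 CPM (20.1 to 49.8). The S2CK interval lay below both others, and that of P27NULL lay above that of WT. In melanotroph-like cells 5 UMIs were counted in each library, or 0.921, 0.465 and 0.334 CPM.

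The share of SC-like cells with at least 1 Sfrp5 UMI was 30.9% (23.4 to 39.3, exact Clopper-Pearson interval) in WT, 33.3% (24.4 to 43.2) in P27NULL and 17.6% (10.4 to 27) in S2CK. In melanotroph-like cells, which served as the background from free RNA, it was 0.355%, 0.174% and 0.193% at median depths of 4220, 2559.5 and 5033 UMIs. Each SC-like cell was then thinned to 2000 UMIs, which kept 74, 61 and 78 cells. The share became 25.7%, 27.9% and 5.13%, and at 1000 UMIs (128, 105 and 91 cells) it was 11.7%, 16.2% and 5.49%. S2CK was lowest at both depths. In percentage points its gap to the others was wider than before thinning at 2000 UMIs and narrower at 1000. All shares were lower after thinning, and relative to the S2CK share the others stood higher at both depths than before. Single SC-like cells held up to 10 (WT), 13 (P27NULL) and 3 (S2CK) Sfrp5 UMIs. At least 5 UMIs were seen in 2, 4 and 0 cells, and the 5 cells with most UMIs gave 26 of 71, 37 of 79 and 10 of 21. The plot of UMIs per cell shows that cells with over 3 Sfrp5 UMIs belonged to the WT and P27NULL libraries.

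**Figure D1:**
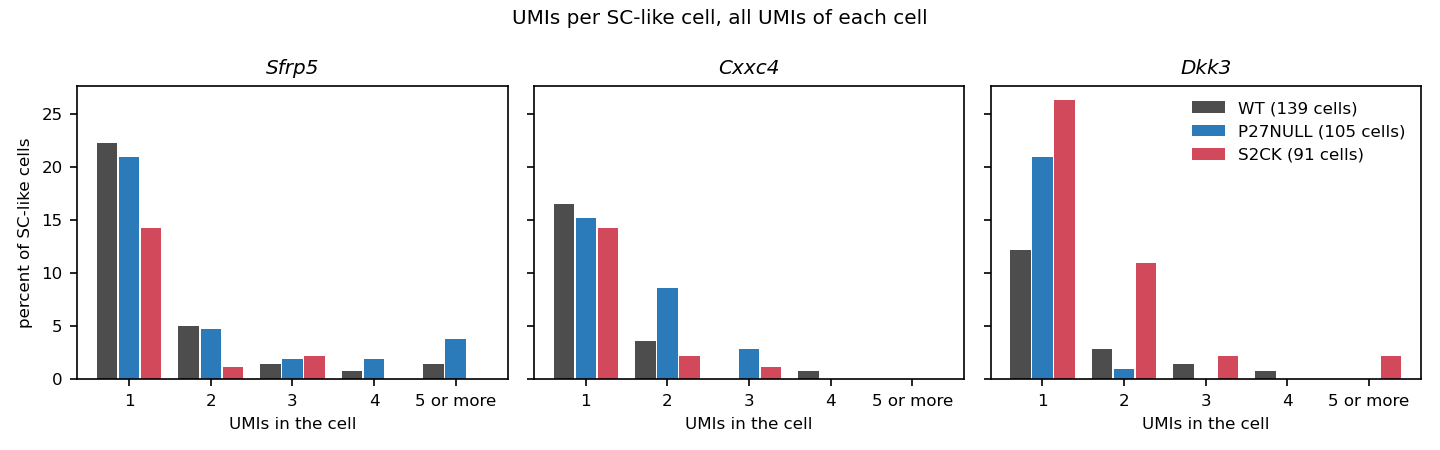
Percent of SC-like cells (vertical axis) with 1, 2, 3, 4 or 5 or more UMIs (horizontal axis) of Sfrp5, Cxxc4 and Dkk3 in WT (139 cells), P27NULL (105) and S2CK (91), all UMIs of each cell used. For Sfrp5 no S2CK cell held over 3 UMIs, whereas for Dkk3 the S2CK bars are the highest at 1 and 2 UMIs.

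The log2 ratio of Sfrp5 in SC-like cells was -2.68 (-3.45 to -1.97) in S2CK against P27NULL and -1.96 (-2.74 to -1.24) in S2CK against WT. These ratios share the S2CK library. In P27NULL against WT it was 0.72 (0.24 to 1.2), but without the 10 deepest SC-like cells of each library, a choice made after seeing the data, it was -0.06 (-0.68 to 0.53). The higher level in the library labelled P27NULL was thus not seen without these cells. They were left out of both libraries at once, so which library moved the ratio was not tested. Without the same cells, S2CK against P27NULL was -2.24 (-3.27 to -1.3). P27NULL cells with Xist had 226 CPM (113 to 405) from 11 UMIs in 18 cells, those without had 206 CPM (159.6 to 261), and S2CK cells with Xist against the former gave -2.82 (-3.95 to -1.61). With SC-like cells taken from the joint clustering, which leaves out the 9 S2CK cells that lay with pituicytes, the ratio was -2.76.

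Cxxc4 (chromosome 3, 134236144 to 134262163) encodes a zinc finger protein that restrains Wnt signalling at Dishevelled. It was present in most cell types. In SC-like cells 37, 43 and 20 UMIs gave 65.9 CPM (46.4 to 90.9) in WT, 113 (82 to 153) in P27NULL and 31 (18.9 to 47.9) in S2CK. The S2CK interval lay below that of P27NULL and overlapped that of WT at its upper end. The share of SC-like cells with a UMI was 20.9%, 26.7% and 17.6%, and after thinning to 2000 UMIs 13.5%, 27.9% and 6.41%. The log2 ratio was -1.87 (-2.71 to -1.07) in S2CK against P27NULL, -1.09 (-1.95 to -0.27) in S2CK against WT and 0.78 (0.11 to 1.46) in P27NULL against WT. P27NULL cells with Xist had 268 CPM (142 to 458) from 13 UMIs in 18 cells, and those without had 90.7 (61.2 to 129) from 30 UMIs. The interval of the cells with Xist lay above that of the cells without. The latter overlapped the interval of WT, where no SC-like cell held Xist. Among cells with Xist and no Y-linked UMIs, S2CK against P27NULL was at -3.06 (-4.14 to -1.93), from 20 and 13 UMIs.

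The lower Cxxc4 of S2CK was also measured outside SCs, which gave only 7.3%, 3.89% and 2.97% of its UMIs. In melanotroph-like cells the level was 53.8 CPM (47.8 to 60.3) in WT, 66.3 (61.5 to 71.3) in P27NULL and 35.4 (32.5 to 38.6) in S2CK, from 292, 712 and 530 UMIs. These 3 intervals did not overlap, and S2CK against P27NULL was -0.90 (-1.07 to -0.74). Corticotroph-like cells, which make Pomc without the melanotroph markers, had the highest level in every library, at 148, 215 and 80.7 CPM, and S2CK against P27NULL was -1.42 (-2.19 to -0.69). Values of -0.73 (-1.69 to 0.14) in gonadotroph-like, -1.26 (-2.85 to 0.40) in Pou1f1-lineage-like and -1.55 (-4.10 to 0.51) in macrophage-like cells had intervals that held 0. The clusters left without a name, in these libraries mostly cells led by Gal with melanotroph markers, gave -1.16 (-1.58 to -0.77). In WT the cluster left without a name, of 135 cells, was led by the haemoglobin genes Hbb-bs and Hba-a1. Naming by Pax7 and Pcsk2, which the study used as melanotroph markers, placed it with the melanotroph-like cells. Over all cells of a library Cxxc4 stood at 60.8, 71 and 35 CPM. The log2 ratio was thus below 0 in each of the 7 cell groups with enough UMIs, whereas for Sfrp5 only SC-like and melanotroph-like cells had enough UMIs, the latter with 10 in both libraries together. Whether the change in SC-like cells exceeds that in melanotroph-like cells was not tested.

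**Figure D2:**
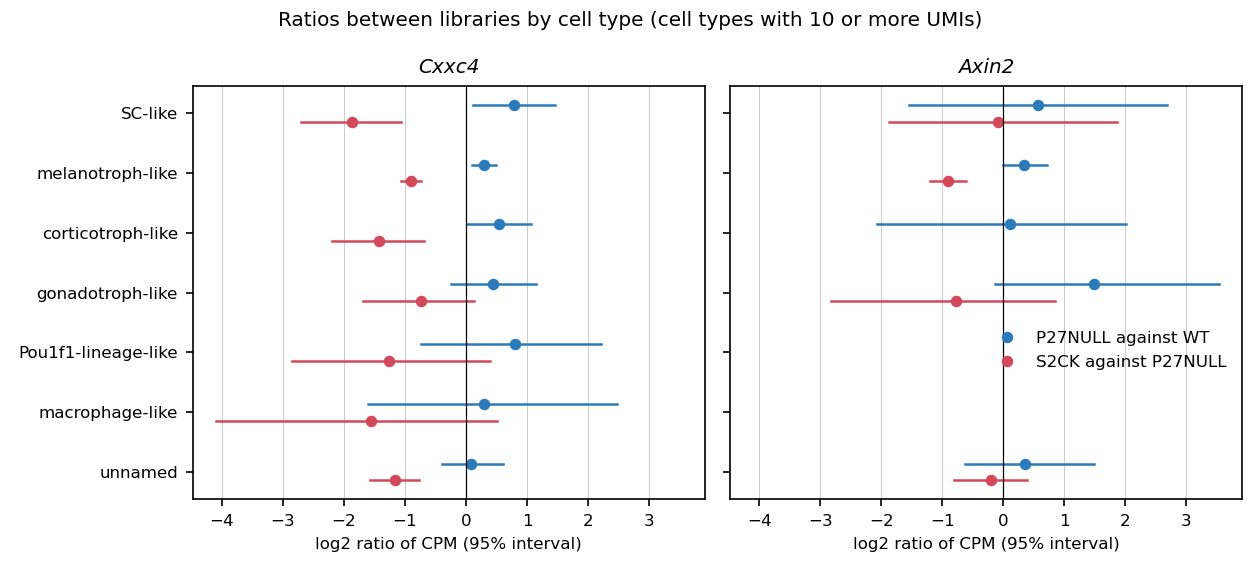
Log2 ratio of CPM (horizontal axis, point, with its 95% interval as a line) of Cxxc4 and Axin2 by cell type (rows), for P27NULL against WT and S2CK against P27NULL, where at least 10 UMIs were counted in both libraries together. All 7 Cxxc4 points for S2CK against P27NULL lie below 0, from -0.73 to -1.87. In WT the cluster left without a name was led by haemoglobin genes, and Pax7 and Pcsk2 placed it with the melanotroph-like cells.

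Because Sfrp5 and Cxxc4 were both lower in S2CK, which has 1 Sox2 copy open to removal, the 250 bases before the start of each were searched on both strands for the core letters bound by SOX factors (ACAAT) and by TCF and LEF factors (CTTTGA). The sequences are from RefSeq (GRCm38.p6), are written in the direction of the gene, and carry any match in capitals. Of 32851 promoters of this length, 27.7% held the first motif and 13.8% the second. Tcf7l2, with a smaller difference in S2CK, is shown beside them as the member with 2 SOX cores, at -244 and -102 from its first start.
Sfrp5, chr19:42202253-42202502, minus strand: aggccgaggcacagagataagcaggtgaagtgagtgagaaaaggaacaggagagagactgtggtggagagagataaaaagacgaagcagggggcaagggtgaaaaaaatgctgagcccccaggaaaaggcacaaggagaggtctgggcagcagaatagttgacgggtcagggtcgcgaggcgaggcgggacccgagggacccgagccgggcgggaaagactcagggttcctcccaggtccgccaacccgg
Cxxc4, chr3:134236245-134236494, plus strand: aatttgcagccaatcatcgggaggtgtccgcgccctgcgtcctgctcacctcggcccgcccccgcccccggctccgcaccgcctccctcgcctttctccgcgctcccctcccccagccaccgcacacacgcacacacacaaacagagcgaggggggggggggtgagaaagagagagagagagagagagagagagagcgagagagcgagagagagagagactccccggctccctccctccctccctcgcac
Tcf7l2, chr19:55741560-55741809, plus strand: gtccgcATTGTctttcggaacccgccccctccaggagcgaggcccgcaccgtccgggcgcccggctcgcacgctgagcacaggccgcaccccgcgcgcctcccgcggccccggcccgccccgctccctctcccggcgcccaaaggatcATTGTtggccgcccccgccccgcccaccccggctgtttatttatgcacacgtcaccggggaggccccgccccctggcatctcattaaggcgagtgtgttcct
Neither set of letters occurred in the Sfrp5 and Cxxc4 windows, nor in that of Axin2, which says only that they are not in these 250 bases. The Frzb window held 1 TCF and LEF core, at -95. At the last of the Lef1 starts the window held 1 SOX core, at -131, and 2 TCF and LEF cores, at -180 and -120. The windows at its other starts held neither. Sfrp1 and Dkk3 were not among the sequences used.

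Dkk3 (chromosome 7, 112116019 to 112159482) encodes a secreted relative of the Dickkopf inhibitors. It too was mainly a transcript of SC-like cells, which gave 76.1%, 66.7% and 82.4% of its UMIs. SC-like cells had 62.4 CPM (43.4 to 86.7) in WT, 63.3 (40.5 to 94.1) in P27NULL and 94.5 (72.3 to 121) in S2CK, from 35, 24 and 61 UMIs. All 3 intervals overlapped. The share of cells with a UMI was 17.3%, 21.9% and 41.8%, but at 2000 UMIs per cell it was 10.8%, 18% and 23.1%, and at 1000 UMIs 4.69%, 10.5% and 7.69%. SC-like cells of S2CK were the deepest, so the share from all UMIs is not compared at equal depth. The log2 ratio of 0.58 (-0.12 to 1.33) in S2CK against P27NULL held 0 in its interval, and it was -0.36 (-1.56 to 1.15) among cells with Xist (60 and 6 UMIs). Connective-tissue-like cells came next, at 50.6, 28.3 and 20.3 CPM, from 6, 4 and 3 UMIs. In WT and P27NULL the intervals of these cells (18.6 to 110.1 and 7.71 to 72.4 CPM) overlapped those of the SC-like cells, and in S2CK they did not (4.18 to 59.2 CPM). The S2CK library, lowest for Sfrp5, had the highest SC-like level of Dkk3, with an interval that overlapped the others.

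The transcription factor Tcf7l2 (chromosome 19, 55741797 to 55933659), a nuclear partner of beta-catenin, stood at 57 CPM (39 to 80.5), 65.9 (42.6 to 97.3) and 38.7 (25.1 to 57.2) in the SC-like cells of the 3 genotypes, from 32, 25 and 25 UMIs. These intervals overlapped. The share of cells with a UMI was 17.3%, 18.1% and 17.6%, and 12.2%, 13.1% and 6.41% at 2000 UMIs per cell. The log2 ratio in S2CK against P27NULL was -0.77 (-1.63 to 0.09). Melanotroph-like cells were at 1.29, 0.558 and 0.267 CPM, from 7, 6 and 4 UMIs, so that SC-like and melanotroph-like intervals lay apart in each library. SC-like cells were not alone in the niche, since pituicyte-like cells had 36 CPM in WT and 48.3 in P27NULL (3 UMIs each), connective-tissue-like cells 25.3, 14.1 and 33.8 CPM, and endothelial-like cells of P27NULL 78.2 CPM (25.4 to 182, 5 UMIs). Lef1, its relative, was almost absent from SC-like cells, with 1, 1 and 0 UMIs. It was highest in T- or NK-like cells, at 20.1, 139 and 44 CPM from 1, 4 and 3 UMIs, and the 4 of P27NULL came from 1 cell. Lef1 marks T lymphocytes as well as Wnt-responding cells.

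**Figure D3:**
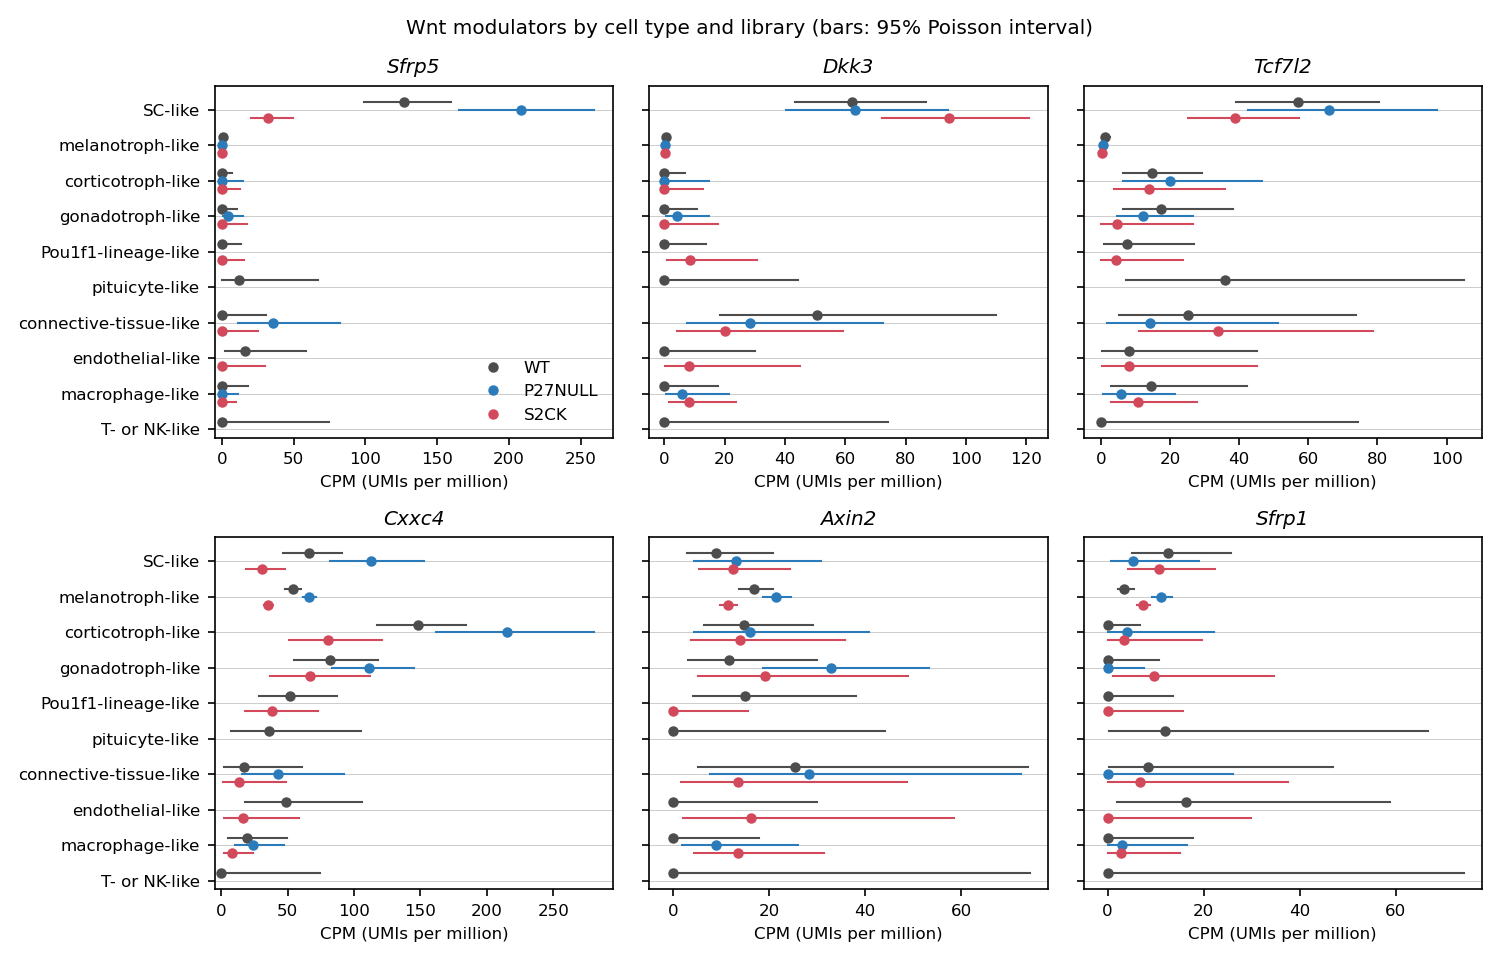
CPM (horizontal axis, points, with 95% Poisson intervals as lines) of 6 members by cell type (rows) in WT, P27NULL and S2CK. Cell types with under 30 cells in a library are left out. Sfrp5 and Dkk3 stand highest in SC-like cells of all 3 libraries, whereas Cxxc4 and Axin2 are spread over endocrine types.

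Axin2 (chromosome 11, 108917828 to 108950783) is a common readout of the pathway. In SC-like cells it stood at 8.91 CPM (2.89 to 20.8), 13.2 (4.28 to 30.8) and 12.4 (5.35 to 24.4), from 5, 5 and 8 UMIs. No difference between libraries was detectable at this depth, and the interval of the log2 ratio in S2CK against P27NULL ran from -1.88 to 1.87. In melanotroph-like cells 92, 231 and 171 UMIs gave 16.9 CPM (13.7 to 20.8), 21.5 (18.8 to 24.5) and 11.4 (9.79 to 13.3). S2CK lay below both other libraries, with a log2 ratio of -0.91 (-1.2 to -0.62) to the library labelled P27NULL and -0.57 (-0.94 to -0.19) to WT, and P27NULL against WT was 0.34 (-0.01 to 0.71). The unnamed clusters, mostly Gal-led, gave -0.20 (-0.81 to 0.39) in S2CK against P27NULL. With such Gal-led clusters added to the melanotroph-like cells, the melanotroph-like value moved from -0.91 to -0.79. Gonadotroph-like cells of P27NULL had 32.9 CPM (18.8 to 53.4), and those of WT and S2CK 11.7 and 19.2 CPM from 4 UMIs each, with overlapping intervals.

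Sfrp1 (chromosome 8, 23411383 to 23449632), the other secreted Frizzled-related protein with counts, was less concentrated in SC-like cells than Sfrp5. SC-like cells gave 20.6%, 1.44% and 5.11% of its UMIs, and their CPM interval overlapped that of melanotroph-like cells in each library. In SC-like cells 7, 2 and 7 UMIs gave 12.5, 5.27 and 10.8 CPM with overlapping intervals. Melanotroph-like cells held 3.5 CPM (2.11 to 5.46) in WT, 11.2 (9.26 to 13.4) in P27NULL and 7.36 (6.05 to 8.87) in S2CK, from 19, 120 and 110 UMIs. The 3 intervals did not overlap, and the log2 ratio was 1.67 (0.97 to 2.46) in P27NULL against WT and -0.60 (-0.99 to -0.22) in S2CK against P27NULL. Within P27NULL, melanotroph-like cells with Xist had 6.23 CPM (3.49 to 10.3) and those without 12.8 (10.5 to 15.5), and the interval of the former lay below. Against the former, the S2CK cells with Xist gave 0.24 (-0.54 to 1.13), so the direction against the library labelled P27NULL turned among these cells. Frzb had 2, 2 and 0 UMIs in the whole of WT, P27NULL and S2CK and 0 of them in SC-like cells, which allows up to 5.35, 7.91 and 4.65 CPM there (3 counts of the total).

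**Figure D4:**
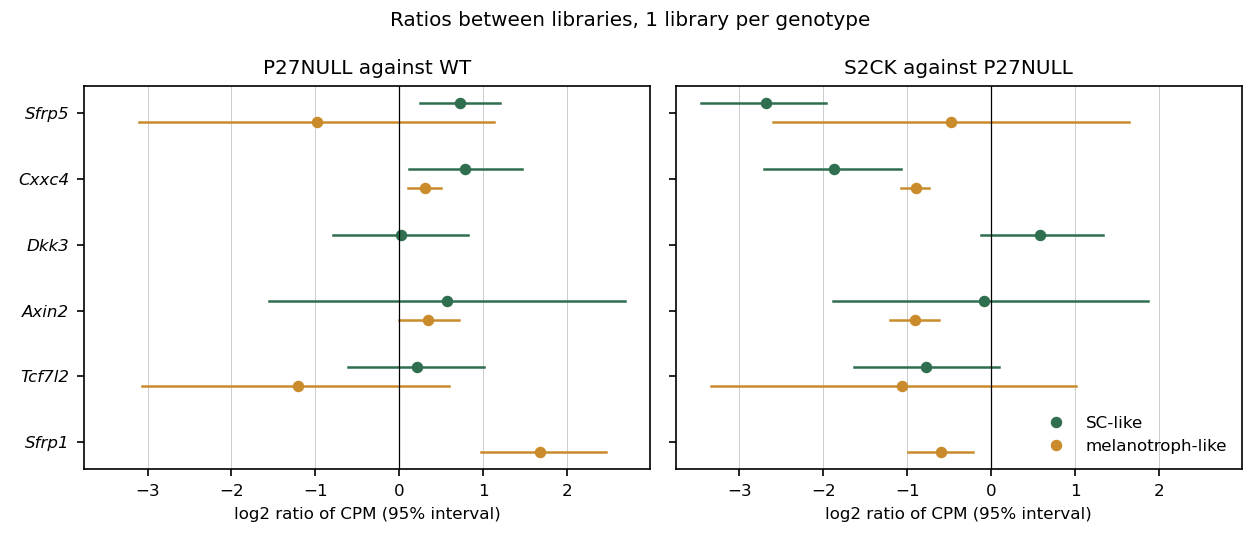
Log2 ratio of CPM (horizontal axis, point, with its 95% interval as a line) of 6 members in SC-like and melanotroph-like cells, for P27NULL against WT and S2CK against P27NULL, 1 library per genotype. Genes with fewer than 10 UMIs in both libraries together have no point. In S2CK against P27NULL the SC-like intervals of Sfrp5 and Cxxc4 lie below 0.

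Members were counted where at least 10 UMIs were found in both libraries and the CPM differed by 2-fold or more. In SC-like cells, S2CK against P27NULL, 2 of 5 members (Sfrp5 and Cxxc4) were lower and 0 higher, with a background of 9.89% of 9040 genes lower and 8.14% higher. In S2CK against WT, 2 of 6 were lower and 0 higher, with a background of 7.96% and 8.34% of 9445 genes. Both counts follow from the choice of the members. In P27NULL against WT, 0 of 5 were lower and 0 higher, with 6.03% and 6.93% of 8672 genes. In melanotroph-like cells, S2CK against P27NULL, 1 of 5 (Tcf7l2, 10 UMIs) was lower and 0 higher, with 5.79% and 2.57% of 14190 genes, and in P27NULL against WT 1 of 5 was lower (Tcf7l2, 13 UMIs, interval -3.06 to 0.59) and 1 higher (Sfrp1), with 1.9% and 4.9% of 13604 genes. In S2CK against WT, melanotroph-like cells had 2 of 5 lower (Sfrp5 with 10 UMIs and Tcf7l2 with 11) and 1 higher (Sfrp1, 1.07, 0.36 to 1.86), with 4.13% and 4.18% of 13744 genes. Sfrp5 and Dkk3 were highest in SC-like cells of all libraries, 2 of 6 members against 3.05% of 14370 genes, and among other Wnt genes Apc and Tle3 did so, 2 of 56. The members were chosen with their levels in SCs known, so their count here also follows from that choice.

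SC-like cells with Sfrp5 did not all hold the other members. Of the 43, 35 and 16 SC-like cells with an Sfrp5 UMI, 14, 14 and 6 also held Cxxc4, 12, 6 and 11 held Dkk3, and 9, 9 and 6 held Tcf7l2. Cells with more UMIs show more genes, and these counts were not corrected for depth. Across 24 sums of 1 cell type in 1 library with at least 30 cells, the genes most like Sfrp5 among 5798 were Cyp2f2 (Pearson r = 0.86 of log2(CPM + 10)), Pax6 (0.85) and Phgdh (0.84), of which Cyp2f2 was an SC marker of the naming. For Dkk3 they were Plat (0.93), Gstm2 (0.91) and Fam107a (0.89), for Tcf7l2 Mgst1 (0.88), Nacc2 (0.86) and Cryab (0.86), and for Cxxc4 Ccpg1os (0.9), Ly6h (0.9) and Ttc3 (0.89). Axin2 went with Inpp5f (0.87). The sums of 1 library share its depth and its free RNA, and these values are descriptions over few cell types.

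Free RNA, which enters droplets of other cells, was followed through the SC markers. In melanotroph-like cells the 6 SC markers stood at a median of 0.133% (WT), 0.0951% (P27NULL) and 0.11% (S2CK) of their SC-like level. Other cell types had fewer UMIs and a wider spread, with medians of 1.91%, 0% and 0.763% in macrophage-like and 6.55%, 1.42% and 0.197% in endothelial-like cells. In melanotroph-like cells Sfrp5 stood at 0.728%, 0.223% and 1.03%, and Dkk3 at 1.18%, 0.441% and 0.283%. Cxxc4 stood at 81.6%, 58.4% and 114% and Axin2 at 190.2%, 163% and 92.2%. In the SC-like cells, pituicyte markers summed to 83.8, 76.4 and 105 CPM (4, 2 and 6 of 6 detected), connective tissue markers to 53.5, 153 and 150.3 CPM (5, 6 and 6 of 6 detected), gonadotroph markers to 459.8, 97.5 and 26.3 CPM (4, 5 and 2 of 5) and melanotroph markers to 857, 672 and 564 CPM (7 of 7 in each). Their part in the differences between libraries was not tested. Under every alternative run, the ways of choosing SC-like cells included, Sfrp5 in S2CK against P27NULL stayed between -2.82 and -2.24. None of the alternatives took free RNA out of the counts, so its part was not tested by them.

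Of 88 other genes of the pathway, listed by role with earlier results of these data known, 40 had enough UMIs in SC-like cells of P27NULL and S2CK. In S2CK against P27NULL 6 of them were lower and 1 higher by 2-fold, beside the 9.89% and 8.14% of all genes, with a median log2 ratio of -0.24 against -0.09 over all genes. In P27NULL against WT 2 of 40 were lower and 6 higher, beside 6.03% and 6.93%, with a median of 0.28 against 0.03. The comparisons with P27NULL share that library. In S2CK against WT 3 of 42 were lower and 4 higher, beside 7.96% and 8.34%, with a median of 0.03 against -0.05. The 6 lower in S2CK against P27NULL were Fzd8, Znrf3, Gsk3a, Amer1, Pygo2 and Tle4. The 6 higher in P27NULL against WT were Fzd8, Znrf3, Lrp6, Kremen1, Tcf7l1 and Tle2. Of these 6, Lrp6 alone had an interval without 0 (1.06, 0.11 to 2.05). The ligand Wnt4 was the 1 higher in S2CK against P27NULL, at a ratio of 2.74 (1.44 to 4.42). It stood at 24.9 (WT), 13.2 (P27NULL) and 88.3 (S2CK) CPM. The alternatives run for the members, those on Xist, depth and clustering included, were not run for these 88 other genes. Wls, which carries ligands out of the cell, stood at 137, 163 and 138 CPM. Of 12 receptors tested 1 was lower (Fzd8, -1.03, -2.4 to 0.31). Among the other receptors, Fzd3 stood at 137, 153 and 80.6 CPM (-0.92, -1.49 to -0.36), Fzd2 at 33.9, 34.3 and 57.3, Ryk at 76.6, 73.8 and 57.3 and Lrp6 at 30.3, 63.3 and 44.9 CPM. Lgr4, a receptor of R-spondins, stood at 69.5, 52.7 and 74.4 CPM.

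Inside the cell, the cytoplasmic components lower in S2CK against P27NULL, beside Cxxc4, which was chosen for it, were Gsk3a (-2.05, -3.56 to -0.7) and Amer1 (-1.13, with an interval of -2.79 to 0.46 that holds 0). Beta-catenin (Ctnnb1) stood at 157, 192 and 243 CPM, Gsk3b at 103, 127 and 119, Csnk1a1 at 262, 264 and 231, Apc at 51.7, 50.1 and 40.3 and Cxxc5, a relative of Cxxc4, at 39.2, 63.3 and 91.4 CPM. Of 11 nuclear factors 2 were lower, Pygo2 (-2.47, -4.54 to -0.77) and Tle4. The corepressor Tle4 stood at 153, 269 and 97.6 CPM (-1.46, -1.94 to -0.99), and it is also in the gene list that the study drew from SCs of these libraries, so it is not independent of them. Tle3 stood at 49.9, 55.4 and 48 CPM. Of 11 common target genes of the pathway (Axin2 included), 5 had enough UMIs in melanotroph-like cells of P27NULL and S2CK, with log2 ratios below 0 in all 5, where 64.8% of all genes were below 0, and a median of -0.91 against -0.16 over all genes. These were Axin2, Nkd1 at -2.61 (-4.37 to -1.18, 5 against 22 UMIs), Lgr5 at -1.23 (-2.22 to -0.29), Rnf43 at -0.27 (-0.61 to 0.08) and Znrf3 at -0.06 (-0.78 to 0.67), so 2 of the 5 intervals held 0.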

How the data were processed

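Single cells of the IL were measured with the Chromium Single Cell 3′ kit on a HiSeq4000. The deposited tables hold raw UMI counts per gene and cell that, per the labels and the study's methods, the authors made with Cell Ranger 3.0.2 (STAR 2.5.1b) on GRCm38 (mm10), leaving out cells with fewer than 50 genes or over 10% mitochondrial content. The lowest UMIs per cell were 502 in WT, 1005 in P27NULL and 1002 in S2CK. Each library was clustered alone (2000 variable genes, 20 components, 20 neighbours, Leiden resolution 1, scanpy 1.11.5), without the 96 Wnt, sex-linked and outcome genes, and clusters were named from marker lists. Cell types other than SCs and melanotrophs came from a joint clustering. A tie between types was settled by the markers among the top 10 genes, a rule set after the data were seen. Doublets were kept, since Scrublet marked 11 of 9661 cells. Libraries shared 2, 4 and 4 cell barcodes by pair. No column was left unused.

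For each cell type of a library, counts were added up. CPM carry exact Poisson intervals, shares Clopper-Pearson intervals and log2 ratios exact conditional intervals, all at 95%, and PCR and animal-to-animal variation lie outside them. Ratios needed 10 UMIs in both libraries together. Only the ratios and their intervals were tested on simulated counts, drawn as Poisson sums per cell type. Such sums leave out the clumping of UMIs in single cells. Clustering, naming and thinning were not tested in this way. The members, the pathway lists and the markers were chosen with earlier results of these data known. The named genes were all members, other Wnt genes at 50 CPM or more in SC-like cells of a library, 2-fold changed with 50 UMIs, or highest of their role in a cell type, and the 3 genes most like each member. Genes named outside this rule (Nkd1, Lgr5, Rnf43, Znrf3 and those that complete a count of 6 or fewer) were chosen after their values were seen. Alternatives were other cell filters, clusterings, scalings (edgeR 4.0.16 TMM factors), thinning to 2000 or 1000 UMIs and P27NULL cells of one sex.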

Additional observations from a re-analysis of the deposited data

How the results depend on the processing

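The log2 ratio of Sfrp5 in SC-like cells of S2CK against P27NULL stayed within its interval under all 11 alternatives run, from -2.82 to -2.24. That of Cxxc4 did so under 9 of 11, from -3.11 to -1.74, and left it when all S2CK cells were set against P27NULL cells with Xist (-3.11) and when only cells with Xist were used in both (-3.06). In P27NULL against WT, Cxxc4 ranged from 0.46 to 0.83, whereas Sfrp5 fell to 0.20 with cells thinned to equal depth and turned to -0.06 without the 10 deepest SC-like cells of each library, an alternative chosen after seeing the data, as were the addition of Gal-led clusters and the use of Xist in both libraries. Sfrp1 in melanotroph-like cells, S2CK against P27NULL, turned to 0.24 against P27NULL cells with Xist, whether all S2CK cells or those with Xist were used. Axin2 in SC-like cells ranged from -1.73 to 0.04 in S2CK against P27NULL, where 9 alternatives had enough UMIs. The count of members 2-fold lower or higher kept its value under the alternatives run, except that against P27NULL cells with Xist, by either choice of S2CK cells, 3 members were lower in S2CK (Axin2 also, from 8 and 2 UMIs) and that 1 member (Tcf7l2, from 7 and 4 UMIs) was higher in P27NULL against WT with thinned cells, where the main count was 0. The causes were not tested. SC-like sums of 20 to 79 UMIs limit ratios of Sfrp5 and Cxxc4 to about the intervals given, and smaller counts give only wide ones. No paired analysis was possible because each genotype had 1 library, and for the same reason no library could be left out.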

Other observations

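Other parts of the niche carried Wnt genes that, apart from Fzd2, SC-like cells held at low levels. Melanotroph-like cells had the ligand Wnt5b at 37.9 CPM (32.9 to 43.5) in WT, 35.6 (32.2 to 39.4) in P27NULL and 28.2 (25.5 to 31) in S2CK, against 7.13, 0 and 1.55 CPM in SC-like cells. Pituicyte-like cells held Wnt5a at 119.8 CPM (57.5 to 220.4, 10 UMIs) in WT and 80.5 (26.1 to 188, 5 UMIs) in P27NULL, the receptor Fzd5 at 192 and 193 CPM and the inhibitor Sfrp2 at 83.9 and 80.5 CPM.

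Connective-tissue-like cells held Rspo3, which strengthens Wnt signals through Lgr receptors, at 278 CPM (192 to 391) in WT, 84.9 (43.9 to 148) in P27NULL and 47.3 (19 to 97.4) in S2CK, from 33, 12 and 7 UMIs in 54, 49 and 41 cells. The secreted inhibitor Sfrp4 stood at 422 CPM (313 to 556), 304 (220.1 to 409.6) and 67.6 (32.4 to 124) there, from 50, 43 and 10 UMIs, so that S2CK lay below both other libraries. In the same cells Fzd2 stood at 101 CPM (52.3 to 177) in WT, 42.4 (15.6 to 92.4) in P27NULL and 142 (87.8 to 217) in S2CK, with overlapping intervals. SC-like cells held Fzd2 at 33.9, 34.3 and 57.3 CPM. These values rest on few cells per library, and which connective tissue cells were caught in each was not tested.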
